A study of Homo sapiens with 9 samples.

Results

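The 77 cytosolic ribosomal protein genes are described here across 9 RNA-seq libraries of NCI-H1155, an established line from a human lung cancer of neuroendocrine type. Members were taken by symbol alone: every gene in the deposited table of 23369 genes named RPL or RPS with a number (and an A or X where present), plus RPLP0, RPLP1, RPLP2 and RPSA. That gave 46 genes of the large subunit and 31 of the small subunit. The rule uses no measured value, but the family was chosen with earlier results of these data known.

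The study gave the cells 1 µM foretinib, 1 µM cabozantinib or the vehicle DMSO for 4 h, beginning 24 h after plating, and it asked how related kinase inhibitors differ in what they do to a cell. Foretinib and cabozantinib both inhibit MET and KDR among other kinases, and share a cyclopropane dicarboxamide core. Foretinib has an additional fluorine on its central ring, and a morpholinopropoxy group where cabozantinib has a methoxy group. Each treatment had 3 libraries, numbered in their titles 1, 2 and 4 for foretinib, 3, 4 and 5 for cabozantinib, and 2, 4 and 5 for DMSO, and library values are given in that order throughout. The labels speak of biological triplicates of 1 cell line, so a p-value measures the spread between these libraries.

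A ribosome is built of ribosomal RNA and one copy of most of these proteins, the acidic stalk proteins being the known exception. The large subunit joins amino acids and passes the growing chain through an exit tunnel, and the small subunit reads the messenger RNA. Ribosomal protein mRNAs are among the most abundant in dividing cells, and most begin with a 5′ terminal oligopyrimidine tract (TOP), a C followed by a run of pyrimidines, through which the kinase mTORC1 and the protein LARP1 control their translation. In many cells mTORC1 lies downstream of growth factor receptors. The data here are mRNA levels and say nothing of translation.

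The start of these mRNAs is shown for members to which the results below return, because the tract is the feature that the family shares and that the choice by symbol did not use. Sequences are from RefSeq on GRCh38.p14, on the gene's own strand, 30 bases before the annotated start and 25 bases from it on, and capitals mark the tract where there is one. RPL11, RPL34 and RPS27A have several annotated starts, and for them a start was shown because it has a tract.
RPL35 (chr9:124861933-124861987, minus strand): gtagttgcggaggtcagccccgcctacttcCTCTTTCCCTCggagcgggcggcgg
RPL11 (chr1:23691776-23691830, plus strand): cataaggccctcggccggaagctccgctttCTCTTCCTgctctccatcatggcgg
RPL38 (chr17:74203648-74203702, plus strand): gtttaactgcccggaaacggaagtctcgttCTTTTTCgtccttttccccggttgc
RPL34 (chr4:108620546-108620600, plus strand): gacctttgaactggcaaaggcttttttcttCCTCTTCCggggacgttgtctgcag
RPL27A (chr11:8682762-8682816, plus strand): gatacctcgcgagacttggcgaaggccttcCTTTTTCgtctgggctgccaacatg
RPS6 (chr9:19380212-19380266, minus strand): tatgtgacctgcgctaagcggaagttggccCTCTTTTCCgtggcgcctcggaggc
RPS12 (chr6:132814539-132814593, plus strand): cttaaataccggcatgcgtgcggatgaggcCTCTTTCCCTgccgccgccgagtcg
RPS27A (chr2:55232658-55232712, plus strand): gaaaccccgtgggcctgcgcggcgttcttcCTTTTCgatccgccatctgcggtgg
RPS15 (chr19:1438366-1438420, plus strand): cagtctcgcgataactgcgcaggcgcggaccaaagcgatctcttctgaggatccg
RPL27 (chr17:42998389-42998443, plus strand): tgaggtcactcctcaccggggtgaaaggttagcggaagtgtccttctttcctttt

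A tract was counted where the annotated start itself is a C followed by at least 4 pyrimidines (C or T), read on the gene's strand only. The RefSeq table held 62 of the 77 members, and 46 of them (74.2%) had a tract at one or more of their starts, 28 of 38 large subunit genes and 18 of 24 small subunit genes. Over starts, 59.7% of 77 member starts had a tract, against 4.07% of all 35116 starts in the table. Above, RPL35 has the longest tract, at 11 bases, RPS12 has 10 and RPS27A has 6. RPS15 and RPL27 are 2 of the 16 members with an entry and no tract at an annotated start, which says only that those letters are not at that base.

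The libraries held 26996023 to 34062153 reads on genes, and foretinib replicate 1 and DMSO replicate 2 were the deepest. Of the 12642 genes tested, those with a value of at least 10 in at least 3 libraries, 16.3% to 21% were at 0 in foretinib libraries, 4.41% to 5.48% in cabozantinib libraries and 5.3% to 10.9% in DMSO libraries, DMSO replicate 2 holding that last, highest share. The part of these missing genes in any result on ribosomal proteins was not tested. The neuroendocrine markers, 12 in the table and 11 tested, summed to 88800 to 98041 in foretinib, 88928 to 95462 in cabozantinib and 82753 to 92826 in DMSO, with STMN2 at 0. Of markers of other cells, PTPRC, CD3E, CD14 and SPI1 among 7 leukocyte genes, COL3A1, DCN and PDGFRB among 6 fibroblast genes, and VWF, CDH5, KDR and TEK among 5 endothelial genes had 0 reads in every library. Other markers of these cells were detected at low level: the leukocyte list summed to 9.87 to 755 in foretinib, 174 to 300 in cabozantinib and 4.89 to 228 in DMSO, and the fibroblast list to 869 to 1194 in foretinib, 767 to 1049 in cabozantinib and 453 to 1345 in DMSO. The endothelial list reached 53.2 in cabozantinib and 87.4 in DMSO and was at 0 in foretinib. Their part in any result was not tested.

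Values are normalised reads, that is reads on a gene divided by 1 size factor of its library. The family was deeply covered, with 72 of 77 members at 500 or more in every library. Among the highest means over the 9 libraries were those of RPL23A of the exit tunnel at 85163, RPL37 at 66649, RPS7 at 64498, RPL8 at 58718 and RPL4 at 55858. Per kilobase of coding sequence the order changed: RPL41, whose peptide is the shortest of the family, came first at 250219, then RPL39 at 233308 and RPL37 at 229034, and RPL23A was at 181972. The divisor is the coding length alone, 75 bases for RPL41 and 153 for RPL39, and leaves out the untranslated ends. This favours short coding sequences, so the order is no ranking of the mRNAs by abundance. The lowest per kilobase among the 73 members with a mean of at least 500 were RPS9 at 2712, RPS10 at 3665 and RPS28 at 5911, and the quartiles were 18589, 28120 and 58121. Large subunit members had a median of 32909 per kilobase and small subunit members 24830.

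In all, 4 members were at 0 in at least 1 library. Of these, 2 were listed at 0 in all 9 libraries, RPL21 among them. RefSeq annotates 137 pseudogenes named after RPL21, and reads of near-identical copies may have been dropped or split by the authors' counting, so a listed 0 is no measure of expression. RPL36A had 178, 0 and 0 in foretinib, 168, 258 and 256 in cabozantinib, and 411, 256 and 424 in DMSO. RPL13A, also known for silencing inflammatory mRNAs when released from the ribosome, had 77.3, 0 and 39.7 in foretinib, 433, 97.7 and 326 in cabozantinib, and 155, 383 and 327 in DMSO. Both were below every DMSO library in all 3 foretinib libraries, at levels where few reads were assigned. They have 52 and 25 annotated pseudogenes, where RPL23A, among the members with the highest levels, has 95.

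Pooled, ribosomal protein mRNA was close to the same in the 3 treatments. The 77 members summed to 1551246, 1523202 and 1469783 normalised reads in foretinib, to 1394019, 1470951 and 1443546 in cabozantinib and to 1369946, 1516241 and 1408641 in DMSO. Foretinib replicates 1 and 2 lay above every DMSO library, foretinib replicate 4 did not, and cabozantinib lay within the DMSO range throughout. The group values were 1514743 ± 41385 in foretinib, 1436172 ± 38992 in cabozantinib and 1431609 ± 75804 in DMSO (mean ± SD, n = 3 each), a ratio of 1.058 for foretinib over DMSO, 1.003 for cabozantinib over DMSO and 1.055 for foretinib over cabozantinib. All 12642 tested genes together summed to 1.040 times the DMSO level in foretinib, and as a share of all normalised reads the family took 5.33% ± 0.18 in foretinib, 5.22% ± 0.123 in cabozantinib and 5.24% ± 0.276 in DMSO. The 3 shares differ by less than the spread between DMSO libraries. In bulk RNA, a change in the number of cells and a change in RNA per cell cannot be told apart, and neither shows in a normalised level.

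**Figure D1:**
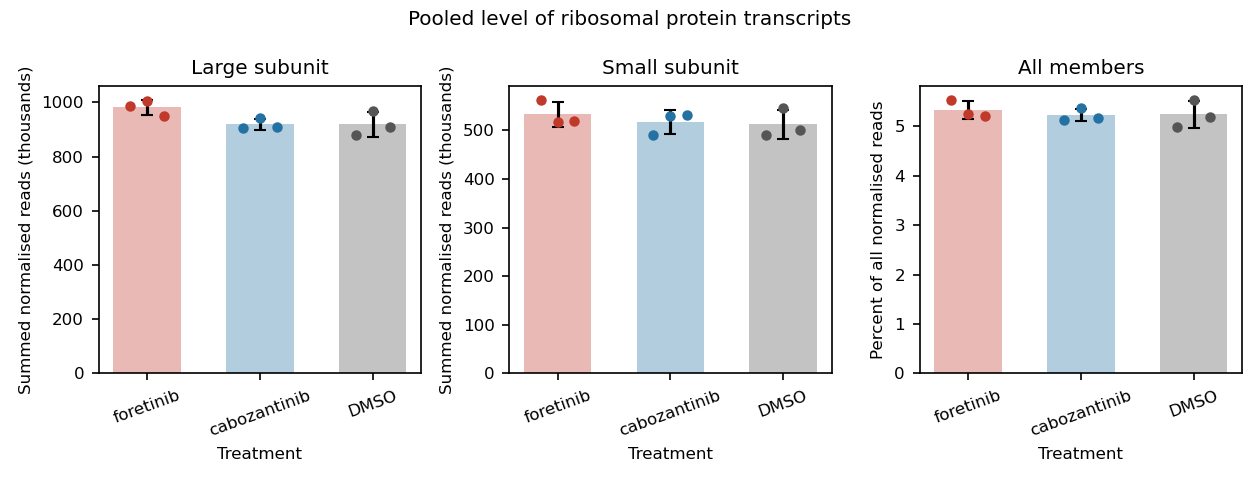
Summed level of large subunit members, of small subunit members (both in units of 1000 normalised reads) and the share of all normalised reads taken by all members (percent), for foretinib, cabozantinib and DMSO. Points are libraries, bars the group mean and whiskers the SD, n = 3. The large subunit sums average 981626 in foretinib and 919070 in DMSO, and the percent shares overlap, from 5.21 to 5.54 in foretinib and from 4.99 to 5.54 in DMSO.

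By subunit, the foretinib libraries exceeded DMSO on average in both, with libraries that overlap. Large subunit members summed to 981626 ± 28197 in foretinib, 918845 ± 19960 in cabozantinib and 919070 ± 45900 in DMSO, ratios of 1.068 for foretinib over DMSO and 1.000 for cabozantinib over DMSO. Small subunit members summed to 533117 ± 26000, 517326 ± 23743 and 512539 ± 30119 in foretinib, cabozantinib and DMSO, ratios of 1.040 and 1.009 over DMSO. The large to small ratio was 1.84 ± 0.0958 in foretinib, 1.78 ± 0.0674 in cabozantinib and 1.79 ± 0.0214 in DMSO, with ranges of 1.75 to 1.95, 1.71 to 1.85 and 1.77 to 1.82. The foretinib range contains the whole DMSO range, so the balance between subunits did not differ beyond the spread of the libraries.

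Gene by gene, 75 members were tested with limma on log2(value + 1), with all 9 libraries in 1 model and Benjamini-Hochberg adjustment over all 12642 genes. The 2 members not tested were those at 0 in every library. No member passed an adjusted p of 0.05 in foretinib against DMSO, and 0% of all tested genes did. At an unadjusted p below 0.05 there were 1 higher member, RPS15, and 2 lower members, RPS12 and RPL36A, where 2.17% of all tested genes were higher and 6.9% lower at that level. Among the 5488 tested genes with a mean of at least 1000, a level that 73 members reach, the shares were 3.97% and 3.88%. Of those 73 members, 1 was higher and 1 lower, RPL36A lying under that level. For cabozantinib against DMSO the counts were 0 members past the adjusted p, again with 0% of all genes, and 0 higher and 0 lower at the unadjusted level, where 0.878% and 0.435% of all genes stood, and 0.528% and 0.31% of the 5488. For foretinib against cabozantinib 0 members and 0% of genes passed, with 5 higher and 4 lower members at the unadjusted level, where 1.83% and 8.08% of all genes stood, and 3.7% and 4.34% of the 5488. Among the 73 members within the 5488, 5 were higher and 3 lower. The quasi-likelihood test of edgeR on recovered reads also called 0 members in each comparison, and 0% of all genes. DESeq2 on the same reads called 2 members in foretinib against DMSO, RPS12 and RPS15, 2 in foretinib against cabozantinib, RPS15 and RPS27A, and 0 in cabozantinib against DMSO. Of all tested genes it called 5.19% in foretinib against DMSO, 4.91% in foretinib against cabozantinib and 0.388% in cabozantinib against DMSO, so the members' share was not above that over all genes in any of the comparisons.

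As a family the fold changes were small and of mixed sign. In foretinib against DMSO 47 tested members were higher and 28 lower, with a median log2 fold change of 0.08, against -0.34 over all tested genes. Genes that are not members but have a mean of at least 5000, 969 of them, had a median of 0.02, so the distance from the median of all genes is shared by other abundant genes. In cabozantinib against DMSO 40 members were higher and 35 lower, with a median of 0.01, which is also the median of the 969 genes. In foretinib against cabozantinib 46 members were higher and 29 lower, with a median of 0.09, against 0.01 over the 969 genes and -0.44 over all tested genes. Both comparisons with foretinib share its libraries, and those against DMSO share the DMSO libraries.

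Groups that did not overlap were counted next. Comparing foretinib with DMSO, all 3 foretinib libraries were above every DMSO library for 6 members, RPL7A, RPL8, RPL11, RPL28, RPL35 and RPS6, where 3.99% of all tested genes had this order, and 5.87% of the 5488. They were below every DMSO library for 5 members, RPL13A, RPL27A, RPL36A, RPS12 and RPS15A, where 7.69% of all tested genes and 4.88% of the 5488 had this order. RPL13A and RPL36A are not among the 5488, whose 73 members gave 6 above and 3 below. Of the 6 that were higher, 5 belong to the large subunit, as do 45 of the 75 tested members. Comparing cabozantinib with DMSO, 0 members were above, where 5.18% of all tested genes and 4.66% of the 5488 were, and 3 members were below, RPL35, RPS9 and RPS27, where 4.71% and 4.96% were. Comparing foretinib with cabozantinib, 11 members were above, RPL5, RPL6, RPL8, RPL11, RPL28, RPL35, RPL38, RPS3, RPS14, RPS15 and RPS25, where 4.49% of all tested genes were and 6.89% of the 5488. In the same comparison 8 were below, RPL13A, RPL19, RPL24, RPL27, RPS12, RPS15A, RPS23 and RPS27A, where 9.7% of all tested genes and 5.63% of the 5488 were. The 73 members within the 5488 gave 11 above and 7 below.

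**Figure D2:**
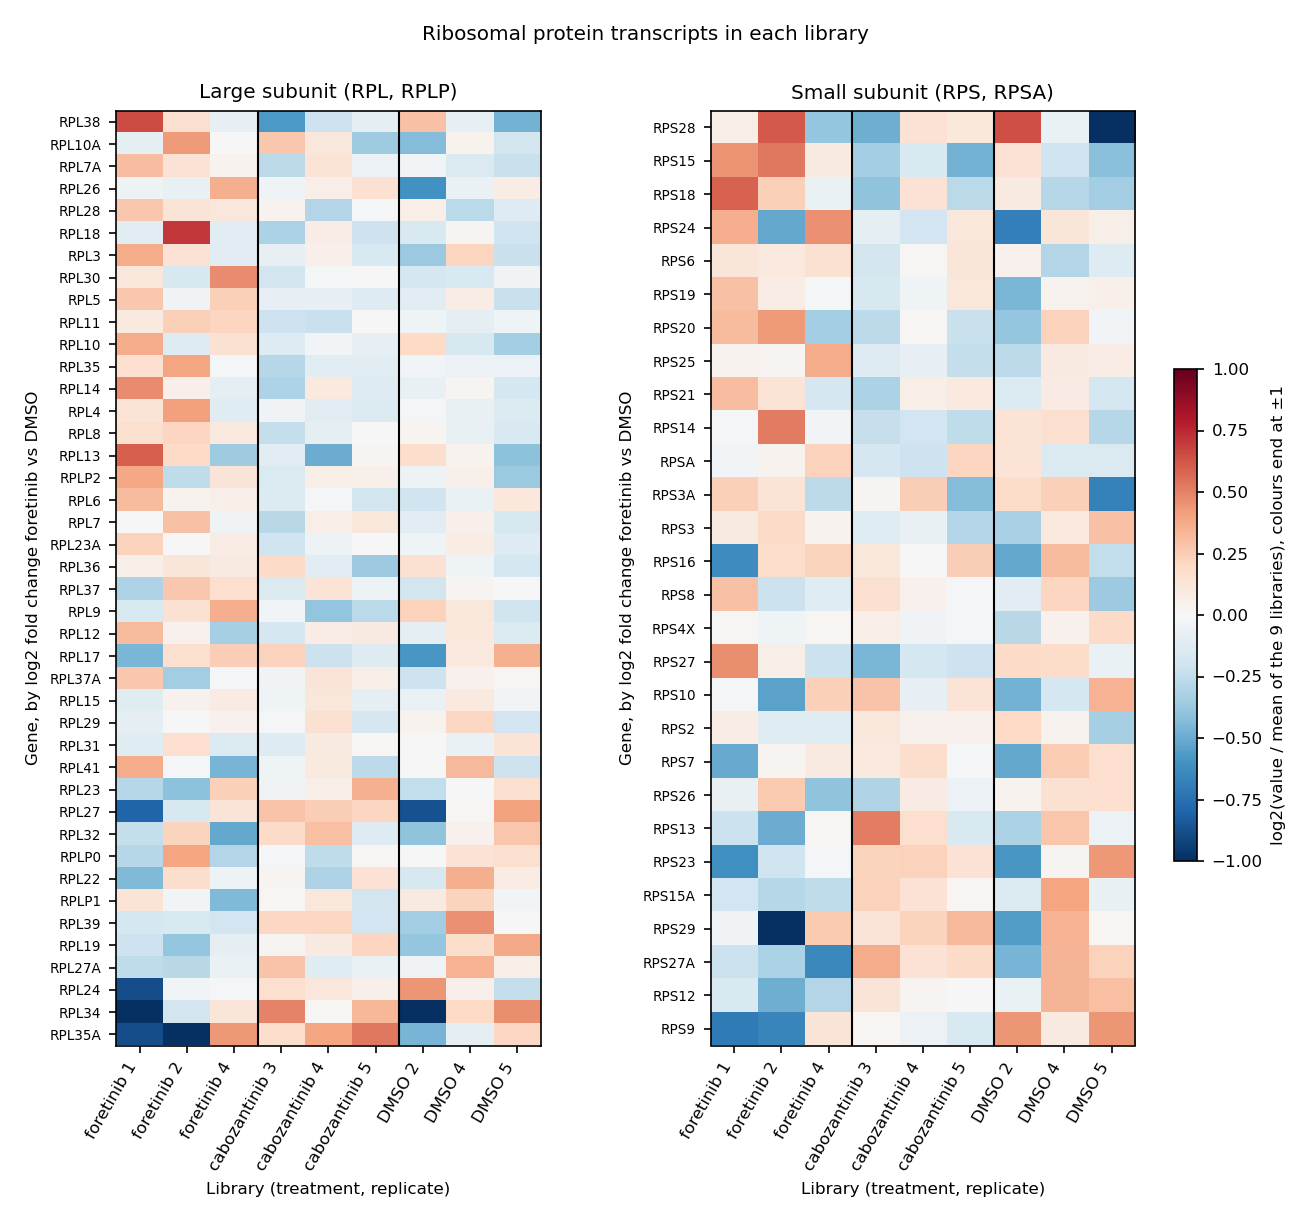
Each row is 1 of 70 of the 73 members with a mean of at least 500 and each column 1 library, the colour giving log2 of the value over the gene's mean of 9 libraries and ending at ±1. Rows are ordered by log2 fold change of foretinib against DMSO within each subunit. RPL34 is dark blue in foretinib replicate 1 (4143 normalised reads) and DMSO replicate 2 (5897), and RPS12 is blue in all 3 foretinib libraries.

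RPS15, a protein of the head of the small subunit that is needed for export of its precursor from the nucleus, had the smallest p of the family in both comparisons with foretinib. Its libraries held 47729, 50180 and 37081 in foretinib, 27550, 31419 and 25083 in cabozantinib, and 38579, 30324 and 26125 in DMSO. Foretinib libraries were all above cabozantinib, but DMSO replicate 2 was above foretinib replicate 4. The means were 44996 ± 6964 in foretinib, 28017 ± 3194 in cabozantinib and 31676 ± 6336 in DMSO. The log2 fold change was 0.51 in foretinib against DMSO (95% interval 0.15 to 0.88, limma adjusted p = 0.420) and 0.68 in foretinib against cabozantinib (0.31 to 1.04, adjusted p = 0.377), and in cabozantinib against DMSO it was -0.16 (-0.53 to 0.20, adjusted p = 1). DESeq2 on recovered reads gave RPS15 an adjusted p of 0.0418 in foretinib against DMSO and 0.00167 in foretinib against cabozantinib. Over every alternative tried, its adjusted p ran from 0.0418 to 0.776 against DMSO and from 0.00167 to 0.722 against cabozantinib, and its log2 fold change was at least 0.32 against DMSO and at least 0.31 against cabozantinib.

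RPS12, which sits on the beak of the head of the small subunit, was the lower counterpart. It had 10914, 8657 and 9911 in foretinib, 13221, 12381 and 12164 in cabozantinib, and 11569, 15316 and 14964 in DMSO. Each foretinib library was below each of the other 6. The log2 fold change was -0.50 against DMSO (-0.87 to -0.13, limma adjusted p = 0.442) and -0.36 against cabozantinib (-0.74 to 0.01, adjusted p = 0.508). By DESeq2 the adjusted p against DMSO was 0.0393, and over every alternative it ran from 0.0393 to 0.776.

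RPS27A, which is translated fused to ubiquitin and then cleaved, had 10475, 9793 and 7774 in foretinib, 15720, 13476 and 13894 in cabozantinib, and 8845, 15373 and 14251 in DMSO. Foretinib was below cabozantinib in every library, and DMSO replicate 2 sat within the foretinib range. The log2 fold change was -0.63 in foretinib against cabozantinib (-1.09 to -0.16, limma adjusted p = 0.394; DESeq2 adjusted p = 0.0479) and -0.43 against DMSO (-0.89 to 0.04, adjusted p = 0.531). Against DMSO it was -0.67 without DMSO replicate 2 and -0.28 without DMSO replicate 4. FAU, in which a ubiquitin-like protein is cleaved from a small subunit protein, averaged 1586 ± 718 in foretinib, 3149 ± 743 in cabozantinib and 3068 ± 1171 in DMSO, with log2 fold changes of -1.06 against cabozantinib (adjusted p = 0.435) and -0.99 against DMSO (-1.87 to -0.11, adjusted p = 0.526). FAU is not named RPS or RPL and stands outside the 77.

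**Figure D3:**
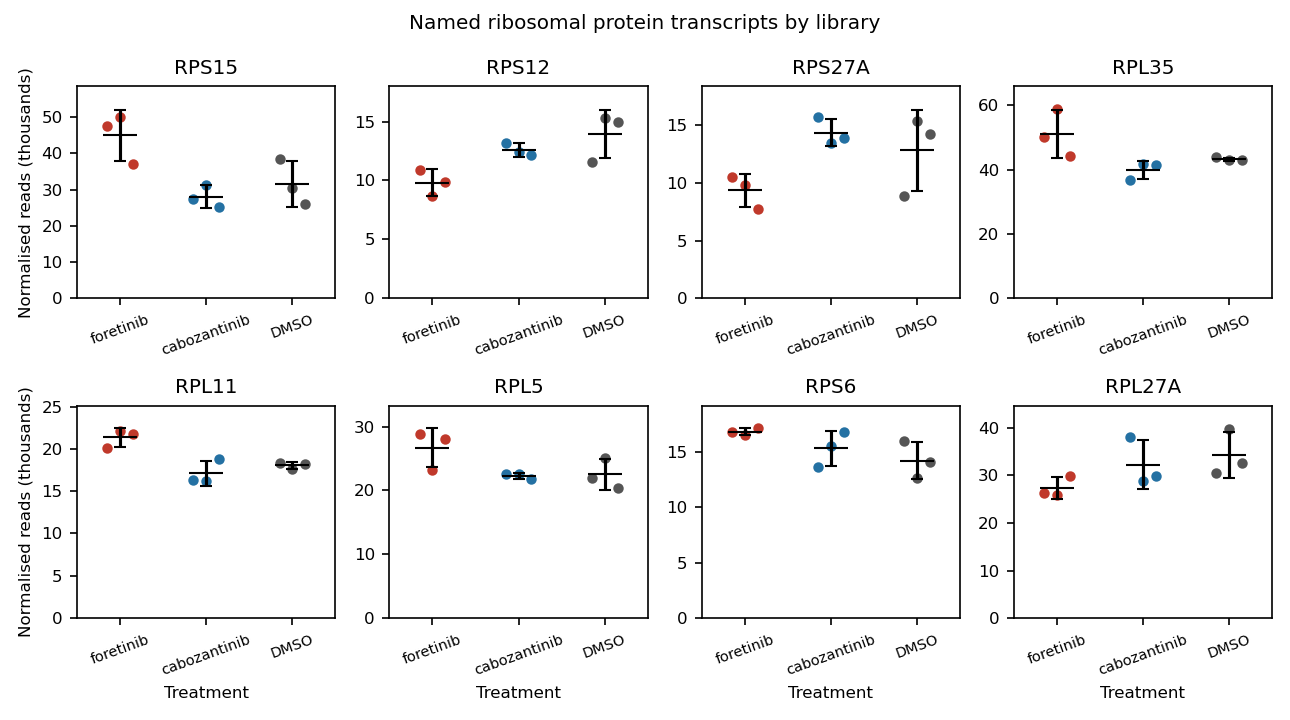
Normalised reads (in units of 1000, axes from 0) of RPS15, RPS12, RPS27A, RPL35, RPL11, RPL5, RPS6 and RPL27A in foretinib, cabozantinib and DMSO. Points are libraries, horizontal lines group means and whiskers the SD, n = 3. RPL11 foretinib libraries sit between 20110 and 22170, above all 6 others, and RPS12 foretinib libraries, up to 10914, below all 6.

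RPL35, which lies at the mouth of the exit tunnel where the signal recognition particle docks, was the member for which the compounds stood on opposite sides of DMSO in every library. It had 50204, 58923 and 44119 in foretinib, 36795, 41687 and 41469 in cabozantinib, and 43830, 43054 and 42882 in DMSO. The gap between foretinib replicate 4 and DMSO replicate 2 is narrow. The log2 fold change was 0.23 in foretinib against DMSO (-0.05 to 0.51, limma adjusted p = 0.536, and 0.12 without foretinib replicate 2), -0.12 in cabozantinib against DMSO (-0.40 to 0.17, adjusted p = 1, and -0.06 without cabozantinib replicate 3) and 0.35 in foretinib against cabozantinib (0.06 to 0.63, adjusted p = 0.430). The 8 exit tunnel members together (RPL17, RPL19, RPL22, RPL23A, RPL26, RPL31, RPL35 and RPL39) had 4 higher and 4 lower in foretinib against DMSO, 0 of them past the limma test, with a summed level 1.040 times the DMSO sum, as for all genes.

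RPL5 and RPL11 form the 5S particle with 5S ribosomal RNA, and in ribosome stress the free particle binds MDM2. RPL11 had 20110, 22170 and 21820 in foretinib, 16362, 16169 and 18794 in cabozantinib, and 18308, 17614 and 18254 in DMSO, foretinib being above all others in each library. Its log2 fold change was 0.24 against DMSO (-0.06 to 0.54, limma adjusted p = 0.538) and 0.32 against cabozantinib (0.03 to 0.62, adjusted p = 0.482). RPL5 had 28769, 23189 and 28103 in foretinib, 22520, 22518 and 21781 in cabozantinib, and 21964, 25134 and 20399 in DMSO, and here DMSO replicate 4 exceeded foretinib replicate 2. Its log2 fold change was 0.25 against both (-0.06 to 0.55 against DMSO, -0.05 to 0.56 against cabozantinib). The pair summed to 48054 ± 2391 in foretinib, 39381 ± 1038 in cabozantinib and 40558 ± 2063 in DMSO, 1.185 times the DMSO level in foretinib and 0.971 times in cabozantinib. Neither gene passed by limma, edgeR or DESeq2.

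Among the other large subunit members that stood above DMSO, RPL8, next to the catalytic centre, averaged 65497 ± 2627 in foretinib, 54504 ± 4580 in cabozantinib and 56154 ± 3472 in DMSO, a log2 fold change of 0.22 against DMSO (-0.03 to 0.47) and 0.27 against cabozantinib (0.02 to 0.52). RPL7A had 24262, 21629 and 20087 in foretinib, 16317, 21564 and 18852 in cabozantinib, and 19252, 17778 and 16763 in DMSO (0.29 against DMSO, -0.04 to 0.62). RPL28 had 22790, 20728 and 20533 in foretinib, 19412, 15451 and 18714 in cabozantinib, and 19857, 15753 and 17295 in DMSO (0.28 against DMSO, -0.05 to 0.61). These foretinib values clear the highest DMSO library by small steps, and every one of the 3 intervals against DMSO includes 0. RPL38, which in mouse is needed for translation of Hox mRNAs, had 38367, 27350 and 23041 in foretinib, 16442, 21170 and 22879 in cabozantinib, and 30019, 23077 and 17615 in DMSO. The lowest foretinib library was just above the highest cabozantinib library, for a log2 fold change of 0.53 (0.05 to 1.01, limma adjusted p = 0.476, and 0.33 without foretinib replicate 1), and DMSO libraries overlapped both groups.

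The lower large subunit members were fewer. RPL27A had 26221, 25870 and 29934 in foretinib, 38115, 28807 and 29874 in cabozantinib, and 30583, 39847 and 32531 in DMSO, all foretinib libraries lying below all DMSO libraries, for a log2 fold change of -0.32 (-0.65 to 0.01, limma adjusted p = 0.531, and -0.21 without DMSO replicate 4). RPL35A, one of the genes mutated in Diamond-Blackfan anaemia, had 1964, 1471 and 4904 in foretinib, 4112, 4783 and 5250 in cabozantinib, and 2643, 3424 and 4201 in DMSO. Foretinib replicates 1 and 2 were below all others and foretinib replicate 4 was within the cabozantinib range, for a log2 fold change of -0.95 against cabozantinib (-1.80 to -0.11, adjusted p = 0.474). It was -0.60 without foretinib replicate 2 and -1.46 without foretinib replicate 4. For RPL36A and RPL13A, described above for their zeros, the log2 fold changes against DMSO were -5.98 (adjusted p = 0.523) and -4.20 (adjusted p = 0.531), and their ratios of group means were 0.164 and 0.135, since a 0 in a single library weighs heavily on the log2(value + 1) scale. The stalk that recruits translation factors, RPLP0, RPLP1, RPLP2 and RPL12, summed to 42975 ± 5897 in foretinib, 42203 ± 1359 in cabozantinib and 43348 ± 3488 in DMSO, with 2 of the 4 higher and 2 lower under foretinib than under DMSO.

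In the small subunit, the 14 genes of the head, 13 of them tested, summed to 160931 ± 15774 in foretinib, 140158 ± 6721 in cabozantinib and 144048 ± 7026 in DMSO. The ratio was 1.117 for foretinib over DMSO and 0.973 for cabozantinib over DMSO, and foretinib was higher than DMSO for 9 and lower for 4. By limma 0 of the 13 passed, and by DESeq2 RPS15 and RPS12 did. RPS15 alone averaged 44996 of the foretinib sum. RPS18 of the head had 28198, 22060 and 17920 in foretinib, 14196, 20733 and 15527 in cabozantinib, and 19955, 15383 and 14766 in DMSO, so foretinib replicate 4 lay among the others (0.43 against DMSO, 0.00 to 0.87, limma adjusted p = 0.531, and 0.26 without foretinib replicate 1). The 17 genes of the body and platform summed to 372186 ± 15490 in foretinib, 377168 ± 18806 in cabozantinib and 368491 ± 23805 in DMSO, ratios of 1.010 and 1.024 over DMSO. RPS6 of the body, the substrate of the S6 kinases downstream of mTORC1, had 16733, 16496 and 17158 in foretinib, 13584, 15530 and 16734 in cabozantinib, and 15928, 12602 and 14070 in DMSO. It was above all DMSO libraries in foretinib, with a log2 fold change of 0.25 (-0.09 to 0.58, adjusted p = 0.564), and its phosphorylation was not measured.

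RPS15A, another body protein, had 19925, 18603 and 19069 in foretinib, 26614, 25073 and 22980 in cabozantinib, and 20661, 29849 and 21543 in DMSO. Foretinib lay below all 6 others, by a log2 fold change of -0.30 against DMSO (-0.65 to 0.04, limma adjusted p = 0.531, and -0.14 without DMSO replicate 4) and -0.37 against cabozantinib (-0.71 to -0.03, adjusted p = 0.481). For cabozantinib, RPS27, a zinc-binding small subunit protein, had the smallest p against DMSO in the family. It had 17846, 13470 and 11112 in foretinib, 9391, 11439 and 11188 in cabozantinib, and 14757, 14686 and 12324 in DMSO, cabozantinib lying below every DMSO library (-0.38, -0.80 to 0.03, adjusted p = 1). RPS9, near the entry of the mRNA channel, had 968, 998 and 1730 in foretinib, 1596, 1519 and 1424 in cabozantinib, and 2145, 1680 and 2146 in DMSO. Cabozantinib was below all DMSO libraries and foretinib replicate 4 was not (-0.39 for cabozantinib, -1.28 to 0.51, and -0.74 for foretinib, -1.63 to 0.16). The genes mutated in Diamond-Blackfan anaemia, 18 in the list and 17 tested, had 10 higher and 7 lower in foretinib against DMSO and 9 higher and 8 lower in cabozantinib against DMSO, with 0 past the limma test in either.

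**Figure D4:**
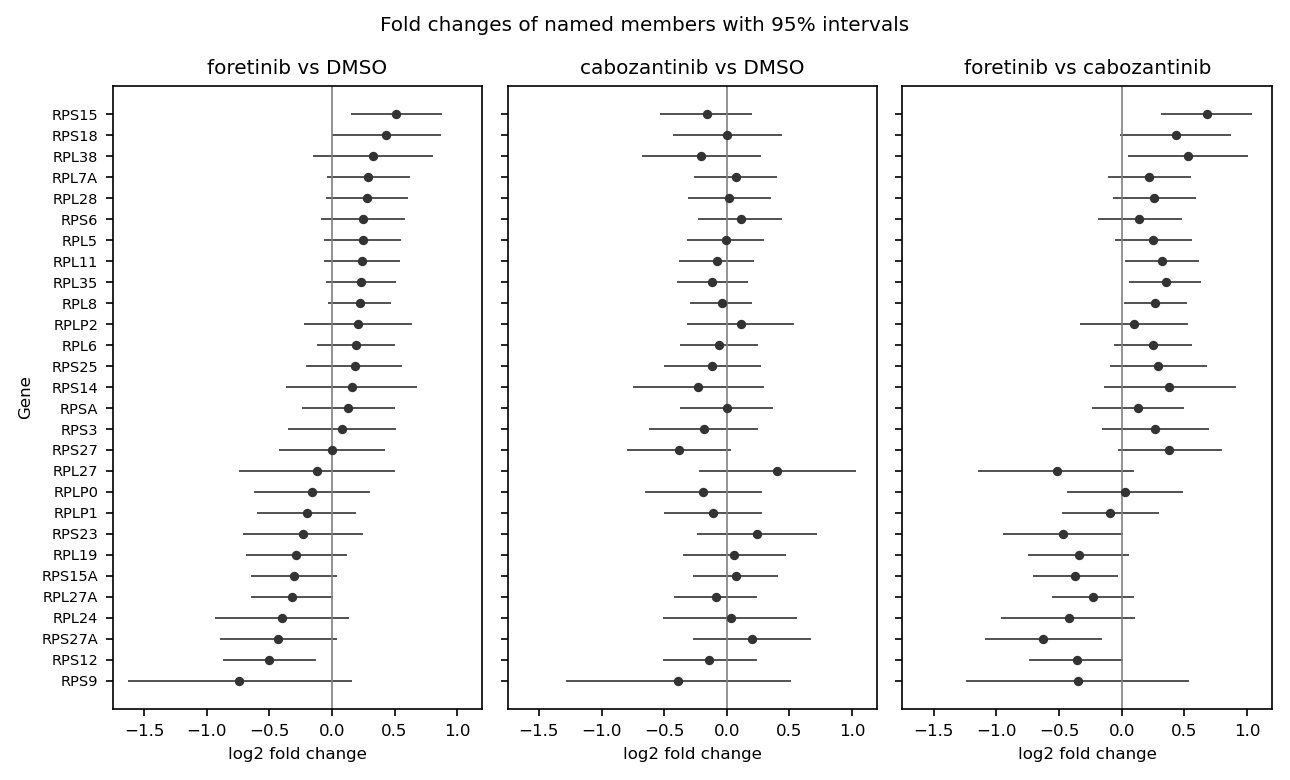
Log2 fold changes of named members (points) with 95% limma intervals (lines) for foretinib against DMSO, cabozantinib against DMSO and foretinib against cabozantinib, in the order of the first panel. RPL13A, RPL36A and some other members named in the text are not drawn. The intervals of RPS15 (0.15 to 0.88) and RPS12 (-0.87 to -0.13) lie off 0 in the first panel, and in the middle panel all intervals drawn cross 0.

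Members varied among replicates about as other genes of their level did. Over the 73 members with a mean of at least 500 the median coefficient of variation (SD over mean of 3 libraries) was 19.5% in foretinib, 10.2% in cabozantinib and 16% in DMSO. Restricted to means of 5000 to 100000, 66 members had 17.8%, 9.9% and 14.7% in foretinib, cabozantinib and DMSO, against 22.5%, 11.5% and 14.4% for 958 other genes. RPL39 in foretinib (1.24%), RPL5 in cabozantinib (1.91%) and RPL35 in DMSO (1.17%) were the steadiest. RPL35A in foretinib (66.8%) and RPS28 in DMSO (71.1%) were the least steady of their groups, RPS28 having 1915, 1170 and 308 in DMSO.

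Deviations of some libraries from their groups were correlated between treatments over the members, some positively and some negatively. For each of the 73 members, the log2 deviation of a library from the mean of the other libraries in its group was set beside that of a library in another group. Foretinib replicate 1 and DMSO replicate 2, the deepest libraries, had a Pearson r of 0.37 over the members and of 0.07 over the 969 other genes at 5000 or more. Foretinib replicate 4 had an r of 0.53 with DMSO replicate 5 over the members, against 0.20 over the other genes, and of -0.51 with DMSO replicate 2, against -0.18. Across the 9 pairs of foretinib and DMSO libraries r ran from -0.51 to 0.53 for members and from -0.18 to 0.20 for the other genes. It ran from -0.39 to 0.29 for members and from -0.07 to 0.06 for other genes between foretinib and cabozantinib, and from -0.32 to 0.27 and from -0.10 to 0.11 between cabozantinib and DMSO. These values describe genes within libraries, the genes are not independent replicates, and the pairs are tied to one another because deviations within a group balance.

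The members at the ends of this pattern were named after their values were seen. RPL34 had 4143, 10758 and 13276 in foretinib, 17178, 12253 and 15358 in cabozantinib, and 5897, 13970 and 16839 in DMSO. Foretinib replicate 1 and DMSO replicate 2 held its lowest values, at deviations of -1.53 and -1.38 on the log2 scale. RPL27, at -0.79 and -1.08, had 9004, 14053 and 17142 in foretinib, 19067, 18588 and 18215 in cabozantinib, and 8548, 15778 and 20689 in DMSO. RPS7, another gene of the Diamond-Blackfan list, had 45548 in foretinib replicate 1 and 45270 in DMSO replicate 2, against 63683 to 76943 in the other 7 libraries. RPL17 (-0.66 and -0.81), RPS16 (-0.83 and -0.55) and RPS23 (-0.51 and -0.81) deviated in the same direction. RPL38 (0.61 and 0.57) and RPL13 (0.68 and 0.36) deviated upward in both libraries. In all, 24 members were below 0 in both libraries, 15 above 0 in both and 34 of opposite sign. Members of opposite sign were thus nearly as many as those of like sign, and other genes were not counted this way. Without these libraries, an alternative chosen after seeing the data, the median log2 fold change of members in foretinib against DMSO was 0.03, the median of all tested genes was -0.37, and 0 members were called.

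**Figure D5:**
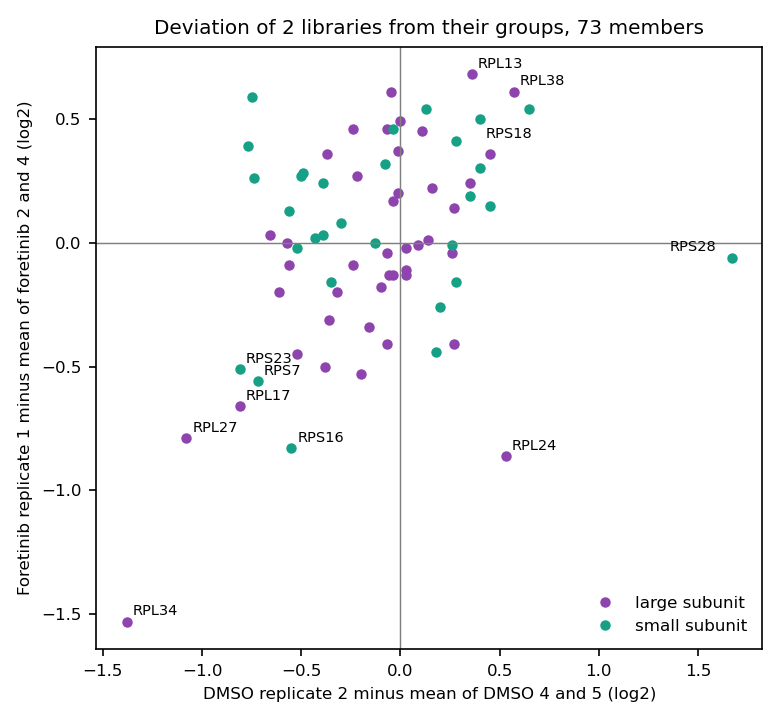
Log2 deviation of foretinib replicate 1 from the mean of foretinib replicates 2 and 4 (vertical) against that of DMSO replicate 2 from the mean of DMSO replicates 4 and 5 (horizontal), 1 point for each of 73 members, coloured by subunit. RPL34 lies at the lower left (-1.53 and -1.38), RPL38 at the upper right (0.61 and 0.57), and RPS28 stands alone on the right (-0.06 and 1.67).

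Genes that act with the ribosomal proteins were taken from lists chosen by function. Over all tested genes 4573 were higher and 8069 lower in foretinib against DMSO, and 6735 were higher and 5907 lower in cabozantinib against DMSO. Of the 969 genes outside the family at 5000 or more, 513 were higher and 456 lower in foretinib against DMSO. In cabozantinib against DMSO 510 of them were higher and 459 lower. The lists that follow hold genes of different levels, so both sets of counts serve as background. In these lists limma and edgeR called 0 genes in any comparison, and DESeq2 called TSC2 alone, in foretinib against DMSO. Of 23 tested mRNAs outside the family that are known to carry a TOP tract, such as those of elongation factors, 8 were higher and 15 lower under foretinib than under DMSO (median log2 fold change -0.05), and 9 higher and 14 lower under cabozantinib than under DMSO (median also -0.05). Their sums were 0.994 and 0.984 times the DMSO sum, where the ribosomal proteins stood at 1.058 and 1.003. EIF3E, a translation initiation subunit, averaged 4430 ± 1953 in foretinib and 6864 ± 1888 in DMSO (-0.71, -1.41 to -0.01, limma adjusted p = 0.531). NACA, which shields nascent chains at the tunnel exit, averaged 55945 ± 13360 in foretinib, 72328 ± 8583 in cabozantinib and 67006 ± 1532 in DMSO (-0.29 against DMSO, adjusted p = 0.532).

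In the 17 tested genes of the mTORC1 and S6 kinase axis, 8 were higher and 9 lower when foretinib was set against DMSO. TSC2, an inhibitor of mTORC1, averaged 3759 ± 1698 in foretinib, 2378 ± 340 in cabozantinib and 1715 ± 137 in DMSO (1.00 for foretinib against DMSO, 0.16 to 1.85, limma adjusted p = 0.501, DESeq2 adjusted p = 0.0461). RPS6KB2, a kinase of RPS6, averaged 113 ± 121, 822 ± 192 and 692 ± 297 in foretinib, cabozantinib and DMSO (-4.19 for foretinib against DMSO, -7.87 to -0.51, limma adjusted p = 0.523). Its foretinib level is low, and low values weigh heavily on the log2(value + 1) scale. Of 27 tested ribosome assembly factors, 9 were higher and 18 lower in foretinib against DMSO, and 15 higher and 12 lower in cabozantinib against DMSO. GNL3, or nucleostemin, averaged 10388 ± 745 in foretinib and 7431 ± 960 in DMSO (0.49, 0.10 to 0.87, adjusted p = 0.470). WDR12, a factor of large subunit assembly, averaged 807 ± 268 in foretinib, 1747 ± 606 in cabozantinib and 1779 ± 275 in DMSO (-1.18 against DMSO, adjusted p = 0.526).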

How the data were processed

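RNA of 9 libraries was measured, 3 for each treatment, with column purification, DNase digestion and the NuGEN Encore Complete and KAPA kits, per the labels' protocols. The authors deposited 1 signal value for each gene and library, a read count divided by a size factor. TopHat2 2.0.13, Cufflinks 2.2.1, HTSeq, DESeq2 and the build hs37d5 are named in the submitters' processing notes; no source used here gives their roles, the annotation or the strand setting, so overlapping antisense genes could not be told apart. In every column 100% of values were whole multiples of 1 step (tolerance 1e-06 of a read), which gave reads back. In 3 columns the step lay near 1. Count tests served only as alternatives, because the deposited values are named normalised counts.

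Genes with a value of 10 or above in at least 3 libraries entered limma 3.58.1 (R 4.3.3; trend, pseudocount 1, Benjamini-Hochberg adjusted over 12642 genes, called below 0.05). Fold changes are on the log2(value + 1) scale. The fit was first run on simulated reads, with large changes in abundant genes only. These reads held no added zeros in foretinib and no changes as small as those of most members, so that run does not cover such data. Alternatives were edgeR 4.0.16, DESeq2 1.42.0, other pseudocounts, filters and scalings, fewer libraries and a replicate block. Same-numbered libraries correlated at -0.00 to 0.03 in their deviations over all tested genes, and at -0.39 to 0.18 over the members. With so few libraries this cannot tell whether the numbers pair them, and the main model holds no block. Molecules amplified more than once were not told apart.

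The members and gene lists were chosen with earlier results of these data known. Named members were, for each comparison, the 10 of smallest p, the 6 highest and 3 lowest by mean, those at 0 in any library, RPS6, RPSA, RPL5, RPL11 and the RPLP genes; for other lists, the 2 genes of smallest p. Members named for groups that do not overlap, for spread, per kilobase or in the deviation of libraries were added after their values were seen, and only some of those taken are described. Coding lengths leave out the stop codon and come from GENCODE 29 principal transcripts. Mature protein sequences were not used here. Some genes are not reported here by name.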

Additional observations from a re-analysis of the deposited data

Results flagged for a closer look

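RPL35, the exit tunnel protein, was singled out because its foretinib libraries (44119 to 58923 normalised reads) all lay above, and its cabozantinib libraries (36795 to 41687) all below, the DMSO libraries (42882 to 43830). The difference between the compounds was itself tested: the log2 fold change of foretinib against cabozantinib was 0.35 (95% interval 0.06 to 0.63, limma adjusted p = 0.430) and did not pass. Over the alternatives its adjusted p ran from 0.0945 to 0.78 and its fold change from 0.21 to 0.45. The DMSO libraries of RPL35 had the smallest coefficient of variation of any member in DMSO, 1.17%, so that a group lies outside their range more readily than for other members.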

How the results depend on the processing

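Limits: 3 libraries a group, 1 cell line and 1 time; members with near-identical copies depend on the authors' counting; zeros in foretinib libraries enter the fold changes of RPL13A and RPL36A. Over 21 alternatives, 65 fold changes of single members gave 1166 values, of which 1128 kept their direction and side of the threshold, 4 newly passed it and 34 changed sign. The cause was not tested for any of these. With DESeq2, 2 members were called in foretinib against DMSO (RPS12 -0.51, RPS15 0.51) and 2 in foretinib against cabozantinib (RPS15 0.68, RPS27A -0.62), where it called 656 and 621 of all 12642 genes; every other alternative called 0 members in every comparison.

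The median of members in foretinib against DMSO was 0.01 under quantile normalisation, which moved the median of all genes from -0.34 to -0.04, and 0.03 when libraries were scaled to the other genes, where the ratio of sums was 1.019. It was also 0.03 without DMSO replicate 2 and foretinib replicate 1. Against cabozantinib, the foretinib median was 0.02 under quantile normalisation and 0.00 with the replicate block. Leaving out 1 library at a time, the medians ran from 0.04 to 0.11 (foretinib against DMSO), -0.05 to 0.04 (cabozantinib against DMSO) and 0.02 to 0.13 (foretinib against cabozantinib).

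Changes of sign in cabozantinib against DMSO concerned RPL5 (0.02 with quantile normalisation, 0.00 with TMM scaling) and RPSA (0.01 with quantile normalisation, TMM scaling, edgeR and DESeq2, 0.07 with the replicate block, 0.09 without the pair of libraries). RPL34 was at -0.04 with the replicate block and -0.05 without the pair, RPS23 at -0.03 without the pair, and with the block RPL35 was at 0.00 and RPS15 at 0.01. In foretinib against cabozantinib RPLP0 was at -0.04 with quantile normalisation and -0.02 with TMM scaling or scaling to the other genes. With the replicate block RPL27 was at 0.22, RPL38 at -0.09, RPLP2 at -0.16, RPS18 at -0.12 and RPS23 at 0.06 (RPS18 at 0.14 in foretinib against DMSO), and RPLP2 was at -0.05 without the pair. The block called 0 members, and whether shared numbers pair the libraries was not settled. Leaving out 1 library at a time, cabozantinib against DMSO ran from -0.14 to 0.09 for RPSA, -0.08 to 0.07 for RPL5, -0.05 to 0.70 for RPL34, -0.03 to 0.48 for RPS23 and -0.01 to 0.20 for RPLP2. Foretinib against cabozantinib ran from -0.20 to 0.14 for RPLP0, -0.21 to 0.07 for RPLP1 and -0.05 to 0.27 for RPLP2.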

Other observations

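Paralogs of ribosomal protein genes were mostly weakly covered. RPL36AL, a near copy of RPL36A, had 7965, 14225 and 7192 normalised reads in foretinib, 8910, 14703 and 10950 in cabozantinib, and 9350, 12097 and 11464 in DMSO, while RPL36A itself did not exceed 424 in any library. RPL22L1, a paralog of RPL22, had 0, 230 and 407 in foretinib, 832, 404 and 331 in cabozantinib, and 9.98, 554 and 402 in DMSO, its lowest values again being in foretinib replicate 1 and DMSO replicate 2. RPL7L1 had 4636, 3330 and 3429 in foretinib, 4002, 3610 and 3010 in cabozantinib, and 5412, 4828 and 3928 in DMSO. RPL39L, RPL3L and RPL10L, known from testis or muscle, were listed at 0 in every library.

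The table held 28 ribosomal protein pseudogenes, of which 11 were at 0 in every library and 8 were tested. Their summed level was 1383 to 6335 in a library. Reads dropped by the counting, or belonging to pseudogenes outside the table, are not in this sum. RPL23AP53 had 173, 1357 and 1231 in foretinib, 956, 2141 and 1591 in cabozantinib, and 1341, 2107 and 1911 in DMSO, and RPS26P11 had 403, 3751 and 972 in foretinib, 3329, 1809 and 708 in cabozantinib, and 471, 2118 and 1343 in DMSO. Both were lowest in foretinib replicate 1. These genes were named after their values were seen.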
